A study of Homo sapiens with 10 samples.

Results

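Splicing regulators were followed at the messenger RNA level in U2OS cells, a human osteosarcoma line, as 47 genes that encode SR proteins, the kinases that phosphorylate them, SR-related proteins, hnRNPs and a few further regulators of exon choice. The rule lists them by symbol. All 47 were found among the 63187 genes of the count table, and all 47 were among the 17290 genes with enough counts to be tested.

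The libraries formed 3 groups of 2. Heated YTHDC1 knockdown cells, heated control cells and unheated control cells were compared, where the controls carried a control reagent. YTHDC1 is a nuclear reader of N6-methyladenosine, a modified base in RNA. The reagents are named sh in the titles but si in the descriptions, and knockdown stands here for either. Temperature and length of heating are not given in the labels. No knockdown group without heating was analysed, so an effect of the knockdown apart from heat cannot be told apart from one that needs heat. Whether paired libraries were separate cultures is not stated in the labels, and the p-values therefore cover only the spread of these libraries, which may be technical.

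SR proteins carry an RNA-binding domain and a tail rich in arginine and serine, and they bind exons and recruit the splicing machinery. SRPK kinases phosphorylate the tail in the cytoplasm, which lets SR proteins enter the nucleus, and CLK kinases phosphorylate it in the nucleus, which releases them from nuclear speckles. Many hnRNPs bind pre-messenger RNA and oppose exon inclusion. Heat is known to remove phosphate from SR proteins, above all from SRSF10, and YTHDC1 is known to bind SRSF3 and SRSF10. Many SR proteins and hnRNPs also control their own messages through exons that lead to decay of the RNA. The counts were made per gene, so such forms, and introns kept in CLK1 and CLK4 messages, could not be separated.

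In the libraries, total counts ran from 14419583 to 14497486 in the heated knockdown, from 13252370 to 14286747 in the heated controls and from 15077827 to 15500743 in the unheated controls. YTHDC1 stood at 121 and 118 CPM (counts scaled to the size of the library after TMM correction) in the heated knockdown, 268 and 258 CPM in the heated controls, and 213 and 225 CPM in the unheated controls, so that 45.4% of the heated control level was left. The heat shock genes HSPA1A and HSPA6 were higher in heated than in unheated controls by 6.51 and 8.30 on the log2 scale. Of 8 mesenchymal and bone lineage markers, 7 were over 1 CPM in every library, and their summed level was 5525 to 6372 CPM in the heated knockdown, 5621 to 5742 CPM in the heated controls and 5614 to 5752 CPM in the unheated controls. The members of that list moved both ways in the knockdown against heated controls, with COL1A2, CDH2, RUNX2 and COL1A1 higher (0.42 to 2.56) and THY1, SPARC and VIM lower (-0.56 to -0.47). Of 6 epithelial markers, CLDN3 was at 0 everywhere and 3 were over 1 CPM in every library, and the sum was 36.5 to 38.6 CPM in the heated knockdown, 9.89 to 11.6 CPM in the heated controls and 12.7 to 12.9 CPM in the unheated controls. The summed level of the blood markers was 4.78 to 6.89 CPM in the heated knockdown, 18.8 to 23.0 CPM in the heated controls and 15.5 to 16.3 CPM in the unheated controls. Of these, LCP1 was lower in the knockdown than in heated controls, at 4.08 and 4.31 CPM in the heated knockdown and 17.0 and 16.5 CPM in heated controls (-1.99). HBA2 was not called, with 5 and 23 counts in the heated knockdown, 14 and 88 counts in heated controls and 0 in unheated controls, and HBB and CD3E were at 0 in every library. The part of these marker shifts in the knockdown results below was not tested.

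Stretches of 250 bases before the gene start are shown for CLK1, the member with the largest called rise in heat. They are also shown for the 3 members whose stretch held a 2-unit motif of the heat shock element, as defined below. The sequences are RefSeq's on GRCh38.p14, read 5′ to 3′ on the gene's strand, with motif letters in capitals. The stretches are chr2:200864659-200864908 (minus strand) for CLK1, chr7:26200747-26200996 (minus strand) for HNRNPA2B1, chr14:21269443-21269692 (minus strand) for HNRNPC and chr11:95066627-95066876 (plus strand) for SRSF8.
CLK1: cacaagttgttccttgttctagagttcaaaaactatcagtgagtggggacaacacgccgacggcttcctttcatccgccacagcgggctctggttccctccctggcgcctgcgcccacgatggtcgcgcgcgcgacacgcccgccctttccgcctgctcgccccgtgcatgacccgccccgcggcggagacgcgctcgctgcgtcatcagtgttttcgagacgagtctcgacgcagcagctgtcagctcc
HNRNPA2B1: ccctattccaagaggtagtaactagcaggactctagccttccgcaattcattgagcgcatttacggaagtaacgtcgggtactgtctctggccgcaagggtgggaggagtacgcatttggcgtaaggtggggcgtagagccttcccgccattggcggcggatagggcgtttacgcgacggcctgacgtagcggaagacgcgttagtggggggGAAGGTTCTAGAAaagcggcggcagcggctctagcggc
HNRNPC: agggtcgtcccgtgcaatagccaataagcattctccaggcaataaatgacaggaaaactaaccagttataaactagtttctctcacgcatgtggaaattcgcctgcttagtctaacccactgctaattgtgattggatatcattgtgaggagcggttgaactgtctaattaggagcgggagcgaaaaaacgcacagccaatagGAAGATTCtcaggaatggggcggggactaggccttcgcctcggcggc
SRSF8: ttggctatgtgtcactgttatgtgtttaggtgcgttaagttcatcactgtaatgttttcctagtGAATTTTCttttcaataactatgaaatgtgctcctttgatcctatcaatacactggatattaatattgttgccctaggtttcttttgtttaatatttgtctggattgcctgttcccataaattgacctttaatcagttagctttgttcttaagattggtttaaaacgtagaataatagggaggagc

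Heat shock factors bind repeats of NGAAN in alternating directions, and the letters searched were GAANNTTC and TTCNNGAA, each of which reads the same on both strands, and their 3-unit extensions, GAANNTTC followed by NNGAA and TTCNNGAA followed by NNTTC, which are the reverse complement of each other. A promoter sequence at the gene start was on hand for 38 of the 47 members. GAANNTTC was found in 3 of the 38, HNRNPA2B1, HNRNPC and SRSF8, and in 5.91% of all 24882 promoters. TTCNNGAA was found in HNRNPA2B1 and in 6.74% of all promoters. At least 1 of the 2 was in the same 3 of 38 members and in 11.8% of all promoters. The motifs of HNRNPA2B1 overlap, and together they spell the first 3-unit form, which was in 0.221% of all promoters. The second 3-unit form was in no member and in 0.265% of all promoters. The first base of the motif lay 38 bases before the start in HNRNPA2B1, 47 in HNRNPC and 186 in SRSF8. CLK1 held none of these letters in this window.

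Heat in control cells was followed by changes in both directions among the splicing regulators, with CLK1 and CLK4 showing the largest rises and SRSF2 the largest fall. Of the 47 members, 17 rose and 16 fell, 70.2% in all (edgeR's quasi-likelihood test, adjusted p under 0.05). Of all genes tested, 43.9% were called, 20.6% higher and 23.3% lower. Of the genes with a mean of at least 20 CPM, a level that 46 of the 47 members reached, 57.3% were called, 26.6% higher and 30.7% lower. The members' share lay above both figures. The bound of 20 CPM is a floor and not a match to the members' levels, so these shares are not compared at equal level. In bulk RNA, a change in the number of cells that express a gene and a change in RNA per cell cannot be told apart. Without replicate 2 of the heated controls 10 members were lower, and without replicate 1 of the unheated controls 9 were. Scaling by library size alone left 13 members higher and 19 lower, and over all genes it gave 2932 higher and 5092 lower calls (36.5% higher), beside 3559 and 4033 (46.9% higher) with TMM. Changes of at least 0.5 on the log2 scale were seen upward in 4 members and downward in 3, whereas 10.8% of all genes rose and 10.8% fell by that much, as did 8.2% and 8.08% of the genes of at least 20 CPM. The median log2 fold change was 0.04 over the members and -0.03 over all genes tested.

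All 6 kinases passed the test in heat, 4 upward and 2 downward. CLK1 (ENSG00000013441, chromosome 2, 200853009 to 200864658), a nuclear kinase of SR proteins, had 245 and 222 CPM in heated controls and 74.9 and 79.1 CPM in unheated controls. Heated libraries lay far above the unheated ones, a 3.03-fold difference (1.60 ± 0.05 on the log2 scale, SE, 2 libraries a group, edgeR adjusted p = 1.8e-17). CLK4 (ENSG00000113240, chromosome 5, 178602664 to 178627050), its closest relative, had 28.7 and 26.6 CPM in heated controls and 14.5 and 15.0 CPM in unheated controls, again without overlap (0.91 ± 0.09, adjusted p = 2.89e-08). CLK3 (ENSG00000179335, chromosome 15, 74608372 to 74630201) had 91.6 and 86.0 CPM in heated controls and 61.4 and 60.2 CPM in unheated controls, a rise of 0.55 ± 0.06 (adjusted p = 3.12e-08). SRPK2, a cytoplasmic SR protein kinase, rose by 0.29 (adjusted p = 0.000147). CLK2 fell by 0.22 and SRPK1 fell by 0.19, and neither call held without replicate 2 of the heated controls (adjusted p = 0.0911 to 0.0976) or without replicate 1 of the unheated controls (0.0607 to 0.127). With all 6 libraries, DESeq2's Wald test, an alternative to edgeR, did not call CLK2 (adjusted p = 0.102) or SRPK1 (0.0635) either. The summed level of the 6 kinases was 617 and 575 CPM in heated controls and 408 and 399 CPM in unheated controls. Most of that difference came from CLK1 alone, and CLK2 and SRPK1 went the other way.

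**Figure D1:**
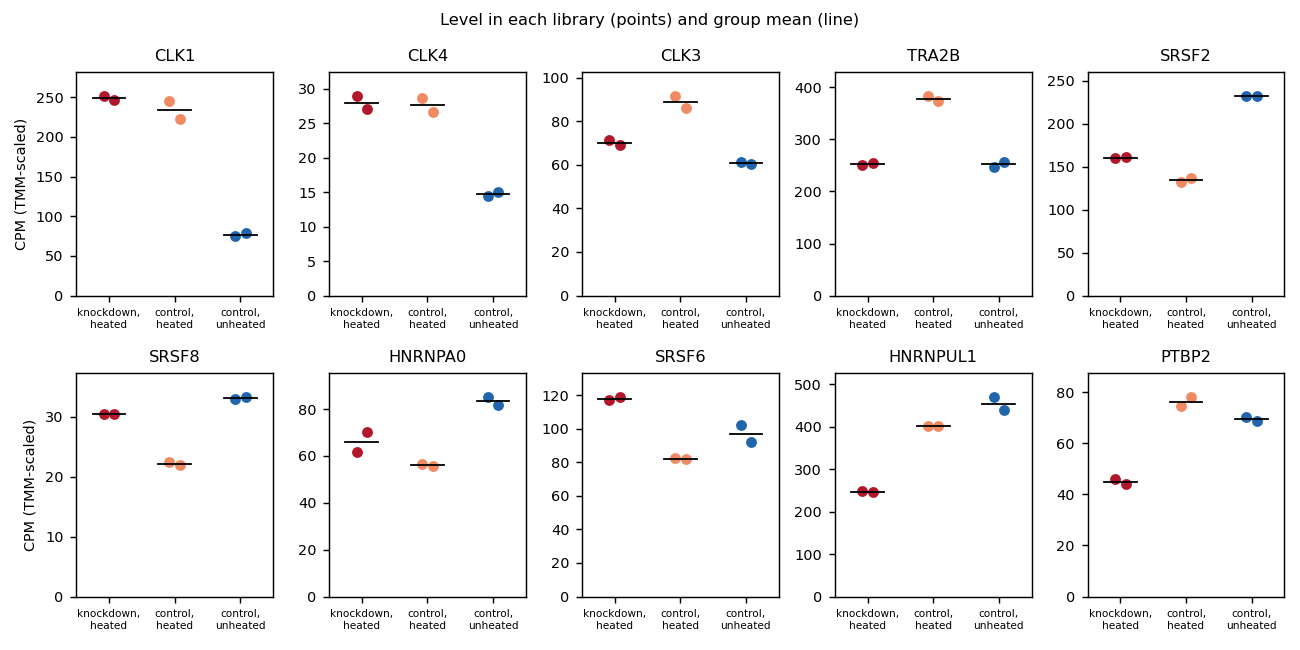
Level in CPM (linear axis from 0) of the 10 members that changed by at least 0.5 on the log2 scale in heat or in the knockdown, for each of 2 libraries (points) and as the group mean (line). CLK1 stood at 252 and 246 CPM in the heated knockdown, 245 and 222 CPM in heated controls and 74.9 and 79.1 CPM in unheated controls, whereas TRA2B was high in the heated controls alone.

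Among the 13 SR proteins, 6 rose and 5 fell in heat (4 and 5 when scaled by library size alone, where SRSF5 and SRSF11 were not called). TRA2B (ENSG00000136527, chromosome 3, 185914558 to 185938014), which binds purine-rich exon enhancers, had 383 and 373 CPM in heated controls and 248 and 257 CPM in unheated controls, a rise of 0.58 ± 0.04 (adjusted p = 9.09e-11). Its paralog TRA2A rose by 0.44 (adjusted p = 2.51e-07). SRSF4 rose by 0.28 and SRSF1, the founding member of the family, by 0.27 (adjusted p = 0.0017). SRSF5 and SRSF11 rose by 0.12 and 0.14. SRSF2 (ENSG00000161547, chromosome 17, 76734115 to 76737411), an exon enhancer binder of nuclear speckles, had 132 and 137 CPM in heated controls and 232 CPM in both unheated controls. The heated level was 58.0% of the unheated one (-0.78 ± 0.05, adjusted p = 8.71e-13). SRSF8 (ENSG00000263465, chromosome 11, 95066877 to 95071225), a close copy of SRSF2 in sequence, had 22.5 and 21.9 CPM in heated controls and 33.0 and 33.3 CPM in unheated controls (-0.58 ± 0.08, adjusted p = 2.73e-06). SRSF3, an adapter in messenger RNA export, fell by 0.39 (adjusted p = 2.13e-07), SRSF6 by 0.24 (adjusted p = 0.00116) and SRSF7 by 0.15. SRSF9 and SRSF10 were not called, at 0.04 and 0.09. SRSF10, whose protein loses phosphate in heated cells, had 259 and 252 CPM in heated controls and 242 and 239 CPM in unheated controls, with no overlap but a difference that missed the threshold (adjusted p = 0.114). In a fit of the heated and unheated controls alone SRSF10 was called higher (0.12, adjusted p = 0.00858). Reads of SRSF2 and of the overlapping gene MFSD11 may not have been separated, since no strand setting is stated in the labels.

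Several of these calls were lost when 1 library was left out, which leaves 1 library in its group. With all 6 libraries, DESeq2's Wald test did not call SRSF7 (adjusted p = 0.0840). Without replicate 1 of the unheated controls, SRSF1, SRSF5, SRSF6, SRSF7 and SRSF11 were no longer called (adjusted p = 0.0622 to 0.250). Those of SRSF5, SRSF7 and SRSF11 were also lost without replicate 2 of the heated controls (0.0647 to 0.148) or of the unheated controls (0.0747 to 0.138), and those of SRSF5 and SRSF11 without replicate 1 of the heated controls (0.0651 to 0.0696).

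**Figure D2:**
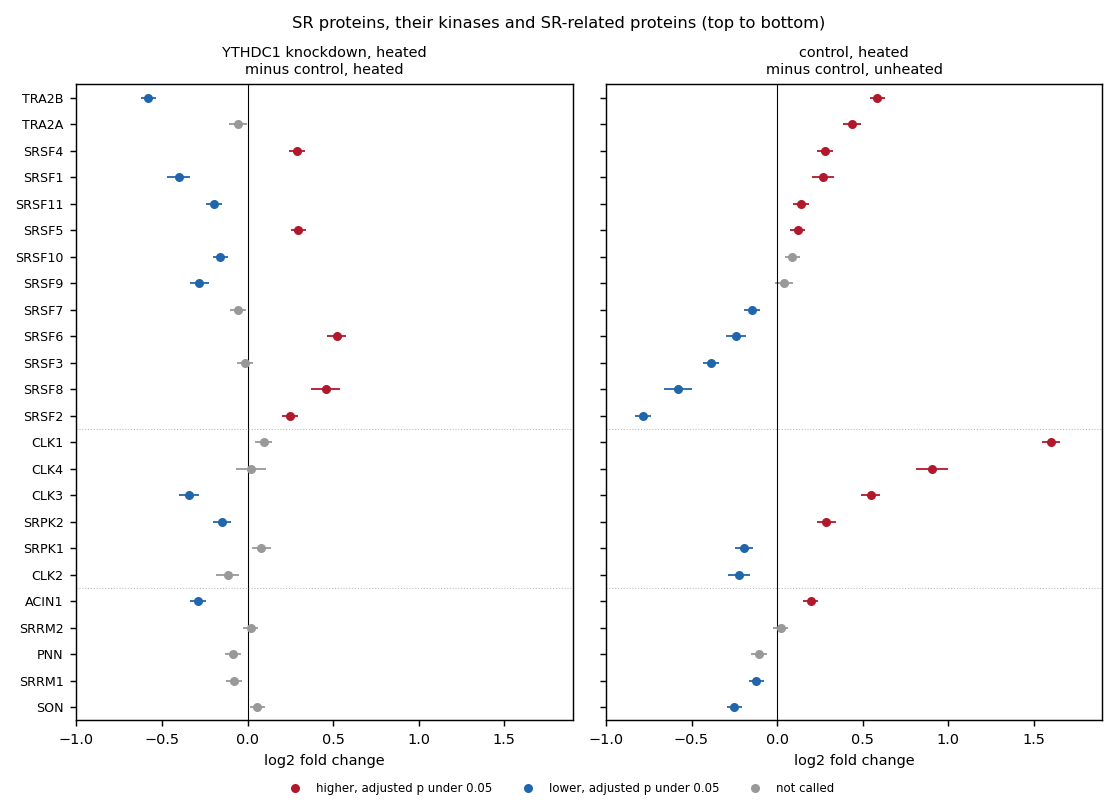
Log2 fold change (points) with its SE (bars) for SR proteins, SR protein kinases and SR-related proteins, separated by dotted lines, in the knockdown against heated controls (left) and in heated against unheated controls (right), with red and blue for adjusted p under 0.05. CLK1 lies at 0.09 on the left and at 1.60 on the right, and SRSF2 at 0.25 on the left and at -0.78 on the right.

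SR-related proteins lack the usual domain layout of SR proteins, and SON and SRRM2 form the scaffold of nuclear speckles. SON fell in heat by 0.25 (adjusted p = 5.17e-05), and SRRM2 was not called, at 1445 and 1458 CPM in heated controls and 1417 and 1445 CPM in unheated controls. ACIN1, a protein found with exon junction complexes, rose by 0.20 (adjusted p = 0.00102). SRRM1 fell by 0.12, a call that was lost without any 1 of the 4 control libraries (adjusted p = 0.0534 to 0.284), and PNN was not called, at -0.11, but was when either knockdown library was left out of the shared fit (0.0116 to 0.0127). DESeq2's Wald test on all 6 libraries did not call SRRM1 (adjusted p = 0.185). The U2AF subunits read the 3′ splice site, and U2AF2, the large subunit, was not called, at 0.04.

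The 18 hnRNPs split evenly in heat, with 6 higher, 6 lower and 6 not called. Scaled by library size alone, 4 were higher and 8 lower, since HNRNPK and HNRNPLL were not called and HNRNPA1 and HNRNPM were called lower. The rises ran from 0.11 to 0.32 and the falls from -0.58 to -0.12, and the median was -0.02. HNRNPL, which binds CA repeats, rose by 0.32 (adjusted p = 7.83e-06), and HNRNPC, which binds runs of uridine, by 0.23 (adjusted p = 0.00014). HNRNPU, a nuclear matrix protein, and HNRNPA2B1 rose by 0.22 and 0.21. HNRNPA0 (ENSG00000177733, chromosome 5, 137745651 to 137754363), a binder of AU-rich messages, had 56.4 and 55.5 CPM in heated controls and 85.2 and 81.5 CPM in unheated controls, a clear separation (-0.58 ± 0.06, adjusted p = 8.01e-08). HNRNPDL fell by 0.46 (adjusted p = 4.74e-08) and HNRNPR by 0.22. HNRNPA1, the best known antagonist of SR proteins, was not called, at 922 and 985 CPM in heated controls and 991 and 1011 CPM in unheated controls. The calls of HNRNPAB, HNRNPD, HNRNPK, HNRNPLL and HNRNPUL1 were each lost in at least 1 fit without 1 library. With all 6 libraries, DESeq2's Wald test did not call HNRNPAB (adjusted p = 0.187) or HNRNPLL (0.0503). HNRNPAB, HNRNPD, HNRNPK and HNRNPLL lost theirs without replicate 2 of the heated controls (adjusted p = 0.0532 to 0.327), and HNRNPAB, HNRNPK, HNRNPLL and HNRNPUL1 without replicate 1 of the unheated controls (0.111 to 0.286). HNRNPK also lost its call without replicate 1 of the heated controls (0.107), and HNRNPAB and HNRNPK without replicate 2 of the unheated controls (0.131 to 0.194).

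PTBP1, which binds pyrimidine tracts and represses exons, fell by 0.29 in heat (adjusted p = 2.04e-05). PTBP2 and RBFOX2 were not called, at 0.14 and 0.09. PTBP2 was past the threshold when either knockdown library was left out of the shared fit (adjusted p = 0.0321 to 0.0367) and with DESeq2 size factors (0.0380). In a fit of the heated and unheated controls alone both PTBP2 (0.00843) and RBFOX2 (0.00961) were called higher.

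In heated cells, YTHDC1 knockdown was accompanied by lower levels of most hnRNPs and by no called rise of any SR protein kinase. Of the 47 members, 10 rose and 21 fell, 66% in all. Of all genes tested, 54.5% were called, 27.4% higher and 27.2% lower, and of the genes of at least 20 CPM 69.6%, with 34.7% higher and 34.8% lower. The share of members called was close to the figure for genes of at least 20 CPM, which are not matched to the members in level. Of the members, 21.3% were higher and 44.7% lower. At 0.5 or more on the log2 scale, 1 member rose and 3 fell, against 15.3% and 15.5% of all genes, and 12.5% and 13% of the genes of at least 20 CPM. The median log2 fold change was -0.08 over the members and -0.00 over all genes tested. These values share the heated controls with the heat comparison, so a chance deviation in those libraries moves both, in opposite directions.

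Of the 18 hnRNPs, 11 fell, 3 rose and 4 were not called, with a median log2 fold change of -0.22. HNRNPUL1 (ENSG00000105323, chromosome 19, 41262557 to 41307787), a relative of HNRNPU with a known place in the DNA damage response, had 248 and 246 CPM in the heated knockdown, against 403 and 401 CPM in heated controls. Both knockdown libraries stood at about the same low level, and 61.5% of the control level was left (-0.70 ± 0.05, n = 2 per group, edgeR adjusted p = 4.72e-12). HNRNPL had 144 and 155 CPM in the heated knockdown and 204 and 206 CPM in heated controls, a fall of 0.46 (adjusted p = 3.02e-08), and its paralog HNRNPLL fell by 0.45 (adjusted p = 5.27e-06). HNRNPC had 459 and 442 CPM in the heated knockdown and 589 and 584 CPM in heated controls (-0.38, adjusted p = 7.99e-08). HNRNPC and HNRNPA2B1 are known as proteins whose binding to RNA changes with N6-methyladenosine. HNRNPA2B1 stood at 1680 and 1543 CPM in the heated knockdown and at 2030 and 2013 CPM in heated controls (-0.33). Listed pseudogene copies of HNRNPC held 1.04% to 1.48% as many counts as the gene, and those of HNRNPL held 4.8% to 6.37%.

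HNRNPU fell by 0.33, HNRNPF and HNRNPH1, which bind runs of G, by 0.32 and 0.24, and HNRNPK, which binds runs of C, by 0.30. The risers were HNRNPR with 458 and 439 CPM in the heated knockdown and 361 and 334 CPM in heated controls (0.37, adjusted p = 3.94e-07), HNRNPM with 546 and 553 CPM in the heated knockdown and 434 and 445 CPM in heated controls (0.32, adjusted p = 7.03e-07), and HNRNPA0 at 0.24. HNRNPA1 was not called, at 1068 and 973 CPM in the heated knockdown and 922 and 985 CPM in heated controls. The summed level of the 18 hnRNPs was 9199 and 8825 CPM in the heated knockdown, 10244 and 10148 CPM in heated controls, and 9900 and 9979 CPM in unheated controls. Both knockdown libraries lay below all 4 others. Without replicate 2 of the knockdown the calls of HNRNPA0, HNRNPA3 and HNRNPDL were lost (adjusted p = 0.0589 to 0.0938) and HNRNPA1 was called (0.00126). HNRNPA3 also lost its call without replicate 2 of the heated controls (0.204).

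**Figure D3:**
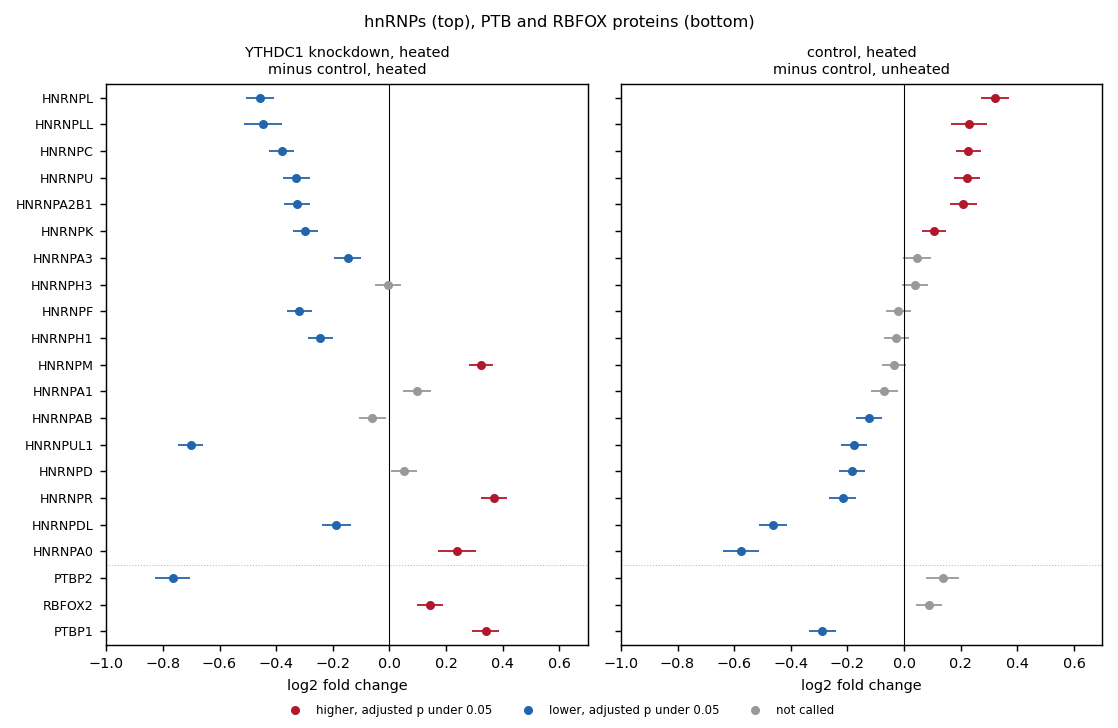
Log2 fold change (points) with its SE (bars) for the 18 hnRNPs and, below the dotted line, PTBP2, RBFOX2 and PTBP1, in the knockdown against heated controls (left) and in heated against unheated controls (right), with red and blue for adjusted p under 0.05. On the left 11 of the 18 hnRNPs lie to the low side in blue, HNRNPUL1 farthest at -0.70, and on the right 6 are higher and 6 lower.

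The 13 SR proteins split in the knockdown, with 5 higher, 5 lower and 3 not called. SRSF6 (ENSG00000124193, chromosome 20, 43457896 to 43464243), a large SR protein, had 117 and 119 CPM in the heated knockdown, against 82.7 and 81.9 CPM in heated controls (0.52 ± 0.06, adjusted p = 2.78e-08). SRSF8 had 30.5 and 30.3 CPM in the heated knockdown, against 22.5 and 21.9 CPM in heated controls (0.46 ± 0.08, adjusted p = 6.13e-05). In both genes the 2 knockdown libraries lay close together and above the controls. SRSF5, SRSF4 and SRSF2 rose by 0.30, 0.29 and 0.25. SRSF2 had 159 and 161 CPM in the heated knockdown, against 132 and 137 CPM in heated controls. TRA2B had the largest fall, with 251 and 255 CPM in the heated knockdown, against 383 and 373 CPM in heated controls (-0.58 ± 0.04, adjusted p = 7.57e-11). SRSF1 fell by 0.40 (adjusted p = 1.8e-05), SRSF9 by 0.28, SRSF11 by 0.20 and SRSF10 by 0.16 (adjusted p = 0.00413). SRSF10 stood at 230 and 228 CPM in the heated knockdown and at 259 and 252 CPM in heated controls. SRSF3, the other known partner of YTHDC1, was not called, at 180 and 183 CPM in the heated knockdown and 184 CPM in both heated controls. Its difference was -0.02, with a 95% interval of -0.11 to 0.08, not adjusted for the number of genes. TRA2A was not called either, at -0.05 (-0.16 to 0.05).

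CLK1 kept values in the knockdown close to those of heated controls, at 252 and 246 CPM in the heated knockdown and 245 and 222 CPM in heated controls. The difference was 0.09 with a 95% interval of -0.01 to 0.20 (adjusted p = 0.113), and it was called without replicate 1 of the heated controls (0.0257) or replicate 2 of the knockdown (0.04995). CLK4 had 29.0 and 27.1 CPM in the heated knockdown and 28.7 and 26.6 CPM in heated controls, a difference of 0.02 (-0.16 to 0.20). CLK3 fell, with 71.3 and 68.9 CPM in the heated knockdown, against 91.6 and 86.0 CPM in heated controls (-0.34 ± 0.06, adjusted p = 1.99e-05). SRPK2 fell by 0.15 (adjusted p = 0.0255), a call that was lost without replicate 1 (0.0968) or 2 (0.0529) of the heated controls or replicate 2 of the knockdown (0.129). DESeq2's Wald test on all 6 libraries did not call SRPK2 (adjusted p = 0.122). CLK2 and SRPK1 were not called, at -0.12 and 0.08. Of the SR-related proteins, ACIN1 fell by 0.29 (adjusted p = 8.48e-06), and SON, SRRM1, SRRM2 and PNN were not called, between -0.09 and 0.06. PNN was called when replicate 1 of the knockdown was left out (0.00432).

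PTBP2 (ENSG00000117569, chromosome 1, 96721784 to 96823739), the paralog of PTBP1 that is best known from neurons, had the largest fall of the 47 members, with 45.9 and 44.0 CPM in the heated knockdown, against 74.4 and 78.2 CPM in heated controls. The knockdown level was 58.8% of that of the heated controls (-0.77 ± 0.06, adjusted p = 2.28e-10). PTBP1 rose, with 274 and 296 CPM in the heated knockdown, against 222 and 229 CPM in heated controls (0.34, adjusted p = 1.51e-06). PTBP1 protein is known to lower PTBP2 messages by making them skip an exon. Whether the changes of PTBP1 and PTBP2 are linked here was not tested. RBFOX2, which binds UGCAUG near exons, rose by 0.14 (adjusted p = 0.00951), and was not called without replicate 1 of the heated controls (0.0751). DESeq2's Wald test on all 6 libraries did not call RBFOX2 (adjusted p = 0.0561). U2AF2 fell by 0.15 (edgeR adjusted p = 0.00443).

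U2AF1, the small U2AF subunit, gave no usable level. It was listed at 58 and 210 counts in the heated knockdown, 25 and 36 counts in heated controls, and 28 and 29 counts in unheated controls. A near-identical copy on chromosome 21, at 6484623 to 6499248 in RefSeq, held 116 and 133 counts in the heated knockdown, 207 and 95 counts in heated controls, and 99 and 152 counts in unheated controls. The 2 entries together had 174 and 343 counts in the heated knockdown, 232 and 131 in heated controls, and 127 and 181 in unheated controls, and the share listed under U2AF1 ran from 10.8% to 61.2% of that sum. U2AF1 was not called in the knockdown (2.05 ± 0.87, edgeR adjusted p = 0.145), but DESeq2's Wald test called it higher (adjusted p = 0.0189). The value was 2.68 without replicate 1 of the knockdown and 0.85 without replicate 2. Because the share of counts listed under U2AF1 varied so widely, no direction is drawn for it.

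**Figure D4:**
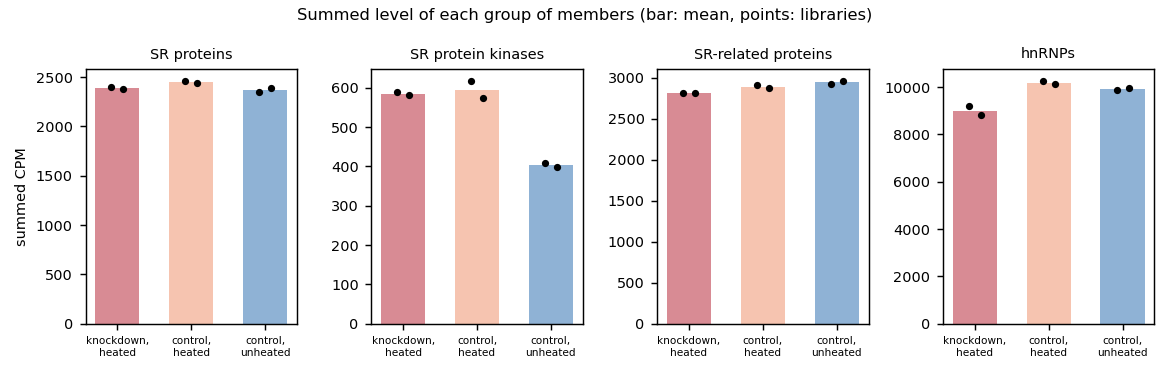
Summed CPM (linear axis from 0) of SR proteins, SR protein kinases, SR-related proteins and hnRNPs in each library (points), with the group mean as a bar. The kinases stood at 589 and 582 CPM in the heated knockdown and 617 and 575 CPM in heated controls. All were above 408 and 399 CPM in unheated controls, a difference that came mostly from CLK1. The hnRNPs were lowest in the knockdown.

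Heated knockdown cells were also set against unheated controls, which shows where the level of each gene ended relative to the unheated state. Of the 47 members, 11 were higher and 22 lower, 70.2% in all, beside 62.2% of all genes tested, with 31.1% higher and 31.1% lower, and 75% of the genes of at least 20 CPM, with 37.5% higher and 37.5% lower. The members' share was below the figure for genes of at least 20 CPM, which are not matched to the members in level. At 0.5 or more on the log2 scale, 3 members were higher and 4 lower, beside 19.2% and 19.8% of all genes, and 15.5% and 17% of the genes of at least 20 CPM. The median was -0.11 over the members and -0.00 over all genes tested. The comparison shares libraries with both others, so the values are given side by side only.

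TRA2B in the heated knockdown differed from unheated controls by 0.00 (95% interval -0.09 to 0.10), beside -0.58 against heated controls, and heated controls stood 0.58 above the unheated ones. SRSF8 in the heated knockdown was at -0.12 against unheated controls and was not called (adjusted p = 0.166), beside 0.46 against heated controls. SRSF2 in the heated knockdown was still lower than in unheated controls, by -0.54 (adjusted p = 3.09e-10). SRSF6 was higher in the heated knockdown than in unheated controls, which had 102 and 92.3 CPM, by 0.28 (adjusted p = 8.64e-05). SRSF4 rose by 0.57 and SRSF5 by 0.42.

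CLK1 and CLK4 were higher in the heated knockdown than in unheated controls by 1.69 and 0.93. CLK3 was higher by 0.21 (adjusted p = 0.00399), a call that was lost without replicate 2 of the unheated controls (0.0576). HNRNPUL1 was lower in the heated knockdown than in unheated controls, which had 470 and 439 CPM, by -0.88 (adjusted p = 3.71e-14). HNRNPDL was lower by -0.65 and HNRNPF by -0.34. HNRNPA0, at 61.6 and 70.4 CPM in the heated knockdown and 85.2 and 81.5 CPM in unheated controls, was lower by -0.34 (adjusted p = 5.33e-05). PTBP2 was lower by -0.63 (adjusted p = 3.89e-09), with 70.3 and 68.6 CPM in unheated controls.

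Levels can be compared between members only per length, here as CPM per kilobase of the deposited gene length, which counts all annotated exons. In unheated controls HNRNPF led with 210 ± 5.7 CPM per kilobase (SD, n = 2), followed by HNRNPK with 186 ± 1.9, HNRNPA1 with 149 ± 2.2, HNRNPA2B1 with 139 ± 0.28 and SRRM2 with 110 ± 1.5. These neighbours were farther apart than their SDs. CLK4, CLK3 and PTBP2 had the lowest levels, at 1.86, 3.09 and 3.45 CPM per kilobase, U2AF1 aside. The order depends on the division by length, and the deposited length of CLK3 was 19697 bases. By CPM alone in unheated controls CLK3 ranked 41 of the 47 members, HNRNPA2B1 ranked 1 and HNRNPF ranked 6. Listed pseudogene copies of HNRNPA1 that held counts summed to 2.74% to 3.11% of the gene's own count. The summed level of all 47 members took between 1.53% and 1.71% of the counts of each library.

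**Figure D5:**
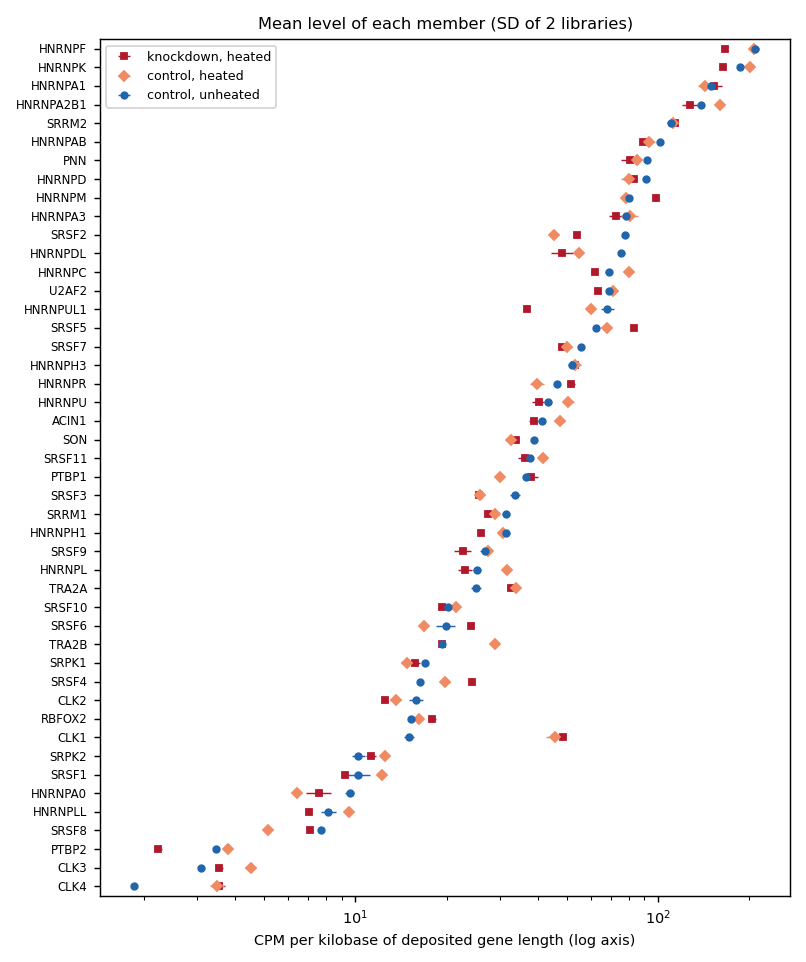
Mean level of 46 members (U2AF1 left out) in CPM per kilobase of deposited gene length (log axis) in the heated knockdown, heated controls and unheated controls, with bars for the SD of 2 libraries. In unheated controls HNRNPF and HNRNPK are at the top with 210 and 186 CPM per kilobase, and CLK4 is at the bottom with 1.86.

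A further 107 tested genes of the spliceosome and its regulators were read from the same fit. In heat 28 of them rose (15 without replicate 1 of the unheated controls) and 36 fell, a median of -0.01. These were 26.2% higher and 33.6% lower, beside 20.6% and 23.3% of all genes tested, and 26.6% and 30.7% of the genes of at least 20 CPM. The lists below are small and stand beside the same shares. The Sm and U1 proteins had 7 of 15 higher, led by PRPF39 at 0.49 and SNRPA at 0.32. Their single fall was that of SNRNP70 at -0.38. Of 17 U2 proteins, which mark the branch point, 5 rose, led by SF3B1 at 0.35 and PHF5A at 0.31, and 8 fell, led by SF3A2 at -0.51 and SF3B4 at -0.42. The tri-snRNP proteins had 3 of 15 higher (SNRNP27 at 0.30, PRPF3 at 0.26) and 5 lower (PRPF31 at -0.30, PRPF6 at -0.29). Of 19 proteins of the catalytic stage 4 rose (BUD31 and PRPF18 at 0.49) and 6 fell (XAB2 at -0.47, DHX8 at -0.40). Of 33 other regulators 6 rose (RSRC2 at 0.85, MBNL2 at 0.70) and 13 fell (BCLAF1 at -0.40, TIA1 at -0.34). Among 8 further kinases and phosphatases of the splicing machinery, DYRK1B and DYRK1A rose by 1.37 and 0.38, and the phosphatase regulator PPP1R10 and the phosphatase subunit PPP1CB fell by 1.32 and 0.37.

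PPP1R10 had 31.3 and 30.9 CPM in heated controls and 75.3 and 80.2 CPM in unheated controls. The fall left no overlap between the groups, in a gene picked after its values were seen.

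In the knockdown 34 of the same 107 genes rose and 34 fell, a median of 0.01. Each was 31.8% of them, beside 27.4% higher and 27.2% lower of all genes tested, and 34.7% and 34.8% of the genes of at least 20 CPM. Of the Sm and U1 proteins 2 rose (SNRPD3 at 0.34, SNRNP70 at 0.26) and 7 fell (SNRPF at -0.28, SNRPG at -0.26). Of the U2 proteins 6 rose (SF3A2 at 0.57, PHF5A at 0.40) and 7 fell (SNRPB2 at -0.36, SF3B5 at -0.35). Of the tri-snRNP proteins 4 rose (SART1 at 0.53, PRPF6 at 0.50) and 2 fell (USP39 at -0.32, SNU13 at -0.19). Of the catalytic stage proteins 11 rose (ISY1 at 0.49, AQR at 0.37) and 4 fell (BUD31 at -1.26, RBM22 at -0.30). The other regulators had 11 higher (MBNL1 at 0.79, RBM10 at 0.39) and 9 lower (PTBP3 at -1.13, MBNL2 at -1.02). None of the 8 further kinases and phosphatases rose and 5 fell, led by PPP1CC at -1.16 and DYRK1B at -0.56.

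The deepest falls among these 107 genes were larger than those of the 18 hnRNPs, a shorter list. Of all genes tested, 15.5% fell by at least 0.5 on the log2 scale in the knockdown. BUD31, a catalytic stage protein, had 53.3 and 55.2 CPM in the heated knockdown, against 131 and 128 CPM in heated controls. PTBP3, the third PTB paralog, had 36.3 and 40.4 CPM in the heated knockdown, against 82.4 and 85.1 CPM in heated controls. PPP1CC, a catalytic subunit of protein phosphatase 1, which removes phosphate from SR proteins, had 54.3 and 52.6 CPM in the heated knockdown, against 125 and 113 CPM in heated controls. In each of these genes the knockdown libraries lay below every control library. The genes were picked after their large falls were seen, so this separation follows from the choice.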

How the data were processed

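RNA-seq was read for 6 libraries of U2OS cells in 3 groups of 2, and 4 samples of a methylated RNA immunoprecipitation, inputs and precipitates, were not analysed here. Per the labels, TRIzol was used to obtain total RNA, the VAHTS Universal V8 kit for the libraries and a DNBSEQ-T7 for sequencing. The authors deposited whole-number counts per gene, not normalized. The submitters' processing notes name, with no role or order, HISAT2 2.2.1, featureCounts 2.0.2, Trim Galore 0.6.7, SAMtools 1.17, FastQC 0.11.8 and DESeq2 1.36.0. They give the build GRCh38. For annotation, strand setting and reads with several matches nothing was found in the labels, so counts of copies and of the 23 members that overlap another RefSeq gene are uncertain.

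Counts were tested with edgeR 4.0.16 in R 4.3.3 (quasi-likelihood F test, robust, TMM scaling, filterByExpr with a minimum count of 10). All 6 libraries entered 1 fit with 3 residual degrees of freedom, and p was adjusted by Benjamini-Hochberg over 17290 genes at a threshold of 0.05. The SE of a log2 fold change is its size divided by the root of F, and its 95% interval is unadjusted. The common coefficient of variation was 3.69%. Libraries of a group differed by more than sampling noise (chi-square per gene 3.26 in the knockdown, 2.51 in heated controls, 1.50 in unheated controls). The test was checked on simulated counts. DESeq2 1.42.0 and limma 3.58.1 (voom) were alternatives, beside other scaling, no filter, fits of 2 groups, a replicate block and leaving out each library.

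The members and gene lists were chosen with earlier results of these data known. Every library's value is given for members that passed the test with a log2 fold change of at least 0.5 in heat or in the knockdown, and for further members beside them. Of each pathway list the 2 largest called rises and falls are named. MATR3 has 2 identifiers and was left out, and SRPK3 was not tested. A marker of the blood list is not reported here. PPP1R10, BUD31, PTBP3 and PPP1CC were picked for library values after their values were seen. The set of genes with at least 20 CPM was added after seeing the data. Positions are RefSeq's on GRCh38.p14, matched by symbol and chromosome.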

Additional observations from a re-analysis of the deposited data

How the results depend on the processing

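Of the members called in the main test, 20 of 33 in heat, 26 of 31 in the knockdown and 24 of 33 in the knockdown against unheated controls were called under all 14 alternatives, and no called member turned its direction in any of them. Leaving out 1 library at a time gave 12 to 18 members higher and 9 to 17 lower in heat, with 10 lower without replicate 2 of the heated controls and 9 without replicate 1 of the unheated controls. It gave 10 to 12 higher and 18 to 22 lower in the knockdown, and 9 to 12 higher and 17 to 25 lower in the knockdown against unheated controls. Of the other splicing genes it left 15 to 30 higher and 31 to 40 lower in heat (15 without replicate 1 of the unheated controls), 25 to 31 and 31 to 35 in the knockdown, and 26 to 33 and 38 to 45 in the knockdown against unheated controls. DESeq2 called 22 other splicing genes higher in the knockdown, against 34 with edgeR. It called 5161, 6967 and 8416 genes in the 3 comparisons, against 7592, 9425 and 10756 with edgeR. Scaling by library size alone moved the share of higher calls in heat to 36.5% (2932 higher, 5092 lower), against 46.9% (3559 higher, 4033 lower) with TMM, and the members to 13 higher and 19 lower. It did not move any called member across 0. Replicate numbers gave no sign of pairing over the tested genes as a whole, where the correlations of deviations were 0.0276, -0.0311 and -0.0139. Correlations over all tested genes cannot exclude pairing that affects some of them. A fit with the replicate block called 7494, 9372 and 10684 genes, lost HNRNPK in heat (adjusted p = 0.0539) and called U2AF1 in the knockdown (0.00111) and in the knockdown against unheated controls (0.000396).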
